A study of Homo sapiens with 7 samples.

Results

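The established cell line RH30 comes from an alveolar rhabdomyosarcoma (RMS), a tumor of childhood with features of skeletal muscle. BV6 is a Smac mimetic: it imitates the mitochondrial protein Smac and so blocks inhibitor of apoptosis proteins. Bulk RNAseq counts were used for 4 untreated RH30 samples and for 3 RH30 samples that had received BV6 (5 µM) over 24 h, all with the genotype label wt and grown in serum-supplemented medium. Per the study's methods, its RH30 cells carried GFP and luciferase reporters. BV6 replicates 2, 3 and 4 each share a code in the title with the untreated replicate of the same number, while untreated replicate 1 is unpaired. The labels do not say what the code marks, and that it marks an experiment is an assumption made here. RH30 is 1 cell line cultured alone, so the samples hold no stromal cells of a tumor. The collagen genes were taken as all rows of the count table whose symbol has the form COL, a type number, A and a chain number, which excludes antisense genes and pseudogenes. They number 44 of the 57189 genes in the table.

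Collagens are the main fiber-forming and sheet-forming proteins of the extracellular matrix. A collagen molecule is a triple helix of 3 chains, and each helical chain repeats units of glycine and 2 further residues, with proline and hydroxyproline common at the other positions. Procollagen is hydroxylated, glycosylated and folded in the endoplasmic reticulum, trimmed outside the cell, assembled into fibrils, networks or filaments and crosslinked there. In skeletal muscle, fibrillar types I, III and V form the connective tissue, type IV forms the basement membrane around each fiber, and type VI links that membrane to the surrounding matrix. Connective tissue fibroblasts are the usual source of most type I collagen, while myogenic cells contribute to the basement membrane.

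Every glycine codon starts with GG, and the libraries differed in how they recovered GC-rich genes, as described below. To show the repeat, 1 coding exon from the triple-helical part is given for 5 chains, read from GRCh38 with GENCODE release 44 coordinates, 5′ to 3′ on the coding strand, with the glycine codons in capitals. A glycine codon stands at every repeat, and the COL12A1 exon has a further one directly after its first.
COL4A1, exon 3, chr13:110213926-110214015, minus strand: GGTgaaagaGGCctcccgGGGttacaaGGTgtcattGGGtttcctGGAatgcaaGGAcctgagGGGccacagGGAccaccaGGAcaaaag
COL4A2, exon 6, chr13:110424953-110424997, plus strand: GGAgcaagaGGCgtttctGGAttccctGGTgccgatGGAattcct
COL5A2, exon 6, chr2:189097277-189097330, minus strand: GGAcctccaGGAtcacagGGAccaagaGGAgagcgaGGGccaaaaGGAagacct
COL12A1, exon 55, chr6:75103757-75103810, minus strand: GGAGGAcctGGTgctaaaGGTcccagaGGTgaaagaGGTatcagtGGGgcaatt
COL27A1, exon 4, chr9:114178291-114178344, plus strand: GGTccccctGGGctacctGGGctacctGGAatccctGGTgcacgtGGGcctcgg
Of the 1161 exons that lie wholly inside such repeats in the 44 genes, 459 (39.53%) are exactly 54 bases long, as 3 of these 5 are. The longest unbroken repeat ran from 23 to 343 Gly-X-Y units in the 44 chains, and the GC content of the repeats was between 53.72% and 73.44% (median 63.42%).

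Library totals were between 54070030 and 77220882 counts. Levels are given as CPM, the usual counts relative to total library size, with TMM normalization, and a gene was called detected above 3 counts, which correspond to 0.0389 to 0.0557 CPM. This floor covers counting error only, because reads copied by PCR cannot be separated from independent ones. Genes were tested with edgeR's quasi-likelihood test after a filter on low counts, and a call means an adjusted p below 0.05 after Benjamini-Hochberg (BH) adjustment over all 23124 genes tested. Changes are given as log2 fold change (log2FC) with its standard error (SE). The replicates are described as biological replicates by the study, and the labels do not say whether they came from separate cultures. In sum, markers fit the RMS label, and 12 of 12 RMS and myoblast markers passed the filter on low counts. Their summed level was 2259 to 3222 CPM in untreated and 1387 to 2507 CPM in BV6 samples, with wide differences between members. MYOD1, the myogenic transcription factor, was at 293 to 473 CPM in untreated cells, and DES, which encodes the muscle intermediate filament desmin, at 606 to 865 CPM. Other members were low, with untreated means of 6.28 CPM for MYF5 and 5.41 CPM for MYH3. MYH8 had 5 to 130 counts and TNNC2 5 to 37 counts per sample. Fibroblast markers summed to 109 to 120 CPM in untreated and 92.3 to 124 CPM in BV6 samples, of which THY1, also expressed by many tumor cells, held most. Of these 10 markers, 6 were too low to test, DCN, FAP, DPT, PRRX1, TCF21 and PI16, with at most 17 counts in any sample. PDGFRB, also on this list, was at 11.6 to 17.7 CPM in untreated and 15.7 to 26.4 CPM in BV6 samples, and it rose with GC correction and block (0.60, adjusted p = 0.00177, edgeR, BH) but not in the fits without correction. LUM had 62 to 301 counts.

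Untreated RH30 cells transcribed many collagen genes, and a small number of chains held most of the counts. Of the 44 genes, 34 were above 3 counts in all 7 samples and 35 passed the filter and were tested. The other 9 (COL4A3, COL4A4, COL4A5, COL4A6, COL9A1, COL13A1, COL23A1, COL26A1 and COL28A1) had at most 19 counts in any sample, and differences between groups were not detectable at this depth for them. Collagen genes held 0.306%, 0.258%, 0.256% and 0.242% of all counts in untreated replicates 1 to 4 and 0.199%, 0.170% and 0.280% in BV6 replicates 2 to 4. The means were 0.2656% ± 0.028 (SD, n = 4) and 0.2167% ± 0.057 (SD, n = 3), so the groups overlapped and differed by less than the spread between the BV6 samples. In each sample the 10 most counted chains took between 87.2% and 88.2% of the collagen counts.

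Levels of different genes are compared only per length, as CPM per kb of merged exons. The highest was COL6A2 (GRCh38, chromosome 21, 46098112 to 46132848), a chain of the beaded filaments of type VI collagen, at 34.6 ± 10.1 CPM per kb (SD, n = 4). It was followed by COL5A1 at 33.6 ± 6.57, COL3A1 at 33.1 ± 5.78, COL14A1 at 26.3 ± 2.61 and COL5A2 at 22.3 ± 2.603 CPM per kb. COL5A1 and COL5A2 encode the chains of type V collagen, which starts and limits fibrils, COL3A1 the type III chain of elastic connective tissue, and COL14A1 a collagen that sits on fibril surfaces. COL27A1, a cartilage fibrillar chain, followed at 21.1 ± 7.34 and the basement membrane chains COL4A1 and COL4A2 at 19.4 ± 1.30 and 18.6 ± 2.94 CPM per kb. COL6A1 at 14.7 ± 4.07 and COL15A1, a basement membrane zone collagen of muscle, at 8.50 ± 1.03 CPM per kb completed the highest 10. The ranges of neighbours in this order overlapped, except those of COL6A1 and COL15A1, whose lowest and highest untreated samples were at 11.3 and 9.50 CPM per kb. With the length of the longest transcript in place of the merged exons, the same 10 chains stood highest, but COL4A2 came first at 55.5 CPM per kb, COL6A2 next at 53.6, and COL4A1 had rank 4 at 43.5 CPM per kb.

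**Figure D1:**
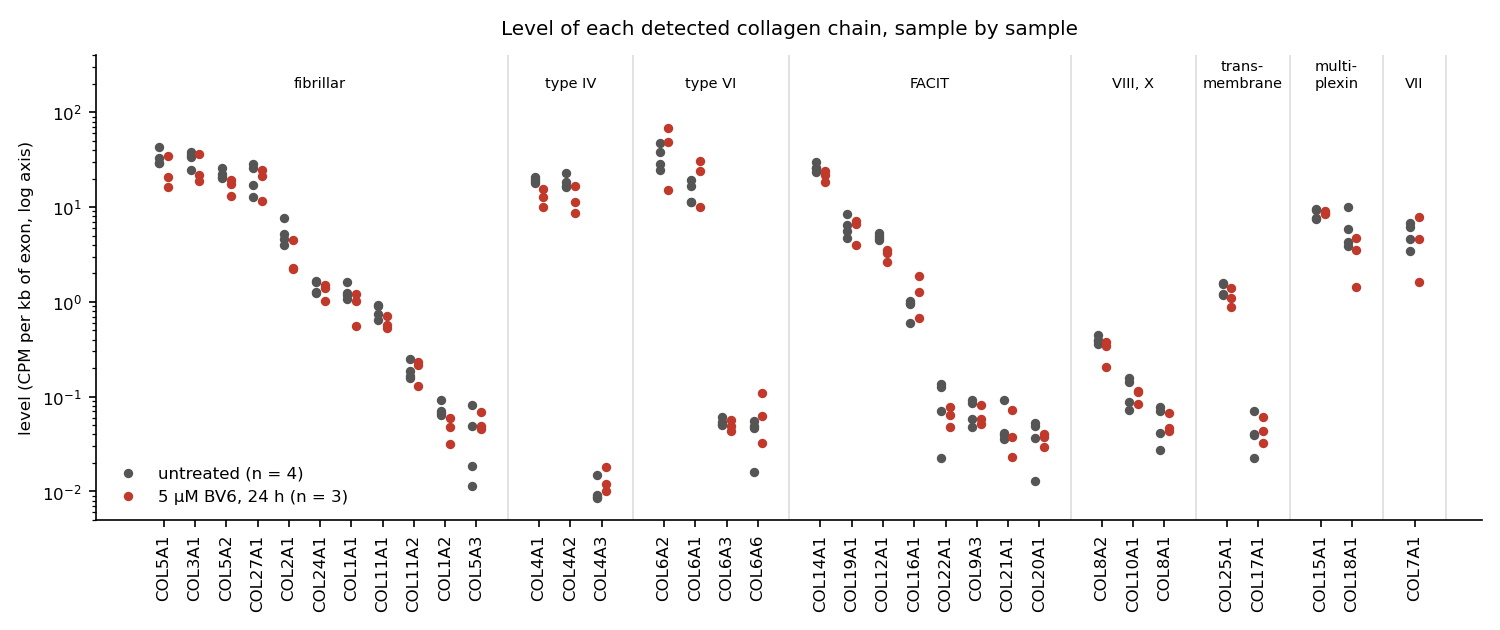
Level of the 34 collagen chains detected in all 7 samples, in CPM per kb of merged exons on a log axis, ordered within each collagen class, with 1 point per sample (grey, 4 untreated; red, 3 with BV6). Untreated means of these chains span from 0.0103 CPM per kb for COL4A3 to 34.6 for COL6A2, and the points of both groups overlap for most chains.

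Fibrillar chains made up 44.7% of the summed level per length in untreated cells, type VI chains 18.3%, FACIT chains (fibril-associated collagens with interrupted helices) 14.6% and type IV chains 14.2%. The typical fibrillar pair of fibroblasts was low. COL1A1 was at 1.28 ± 0.233 CPM per kb and COL1A2 at 0.0736 ± 0.0127, the latter with only 21 to 77 counts per sample. In every sample the level of COL1A1 per length was between 16.6 and 21.3 times that of COL1A2, with a mean ratio of 17.3 ± 0.747 in untreated cells (SD, n = 4) and of 19.8 ± 1.84 with BV6 (SD, n = 3). Both chains are parts of the usual type I collagen molecule, so these cells held far more mRNA of one partner than of the other. The chains of type V were closer to each other, with a COL5A1 to COL5A2 ratio of 1.53 ± 0.403 in untreated cells, and so were those of type IV, with a COL4A1 to COL4A2 ratio of 1.06 ± 0.141.

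Type VI collagen is built from an α1, an α2 and an α3-like chain. COL6A1 and COL6A2 were among the highest collagen genes, with a COL6A1 to COL6A2 ratio of 0.427 ± 0.0284 in untreated cells (SD, n = 4) and of 0.530 ± 0.104 with BV6 (SD, n = 3). The α3 gene COL6A3 had 52 to 86 counts per sample, and COL6A1 exceeded it 202 to 558 times per length of merged exons, or 130 to 360 times with the longest transcripts. Its relatives COL6A5 and COL6A6, which encode alternative α3-like chains, were at 0.0214 ± 0.00861 and 0.0416 ± 0.0173 CPM per kb in untreated cells. So each of the 3 candidate partners was far below COL6A1 and COL6A2. The ratio of COL11A1 to COL11A2, chains of cartilage type XI, was 4.35 ± 0.946 in untreated and 3.45 ± 1.70 in BV6 samples, and its ranges overlapped.

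The chains that were high in untreated cells also varied between untreated samples. For the 18 chains of at least 10 CPM, the highest untreated sample was a median of 1.497 times the lowest, against 1.28 times over the 11042 genes at that level. COL18A1, which encodes the basement membrane collagen that gives endostatin, was at 84.2, 49.6, 36.6 and 33.0 CPM in untreated replicates 1 to 4. COL6A2 was at 252, 202.5, 132 and 152 CPM and COL27A1 at 360, 401, 239 and 181 CPM in the same samples. Replicate 1 or 2 was highest in these 3 genes, and all 3 are rich in GC. With the GC correction described below, the log2 range between untreated samples went from 1.354 to 0.677 for COL18A1 and from 0.938 to 0.399 for COL6A2. For COL27A1 it went only from 1.151 to 1.085. The cause of the spread was not tested. The spread bears on the comparison with BV6, because it enters the error of a difference in the fits on condition only. The replicate block compares samples within an experiment.

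Libraries differed in their recovery of GC-rich genes, and BV6 replicate 3 and untreated replicate 1 stood apart. Between genes of 38.8% and 61.9% GC (the 10th and 90th percentile), the level relative to the mean of all samples shifted by -0.776 on the log2 scale in BV6 replicate 3 and by 0.555 in untreated replicate 1. In the other 5 samples this shift was between -0.0828 and 0.179. The median GC content of the tested collagen genes was 56.09%, against 48.69% over the 17931 genes of the test whose GC content was known. Without correction, the median log2FC of all genes went down from 0.0874 below 40% GC to -0.401 above 65% GC. The 12 collagen genes between 60% and 65% GC had a median of -0.15 where all genes of that bin had -0.24, and the 5 between 40% and 45% had -0.21 where all genes had 0.06. The results below are therefore given as counted and with the GC trend of each library removed, and for several chains also without single libraries.

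**Figure D2:**
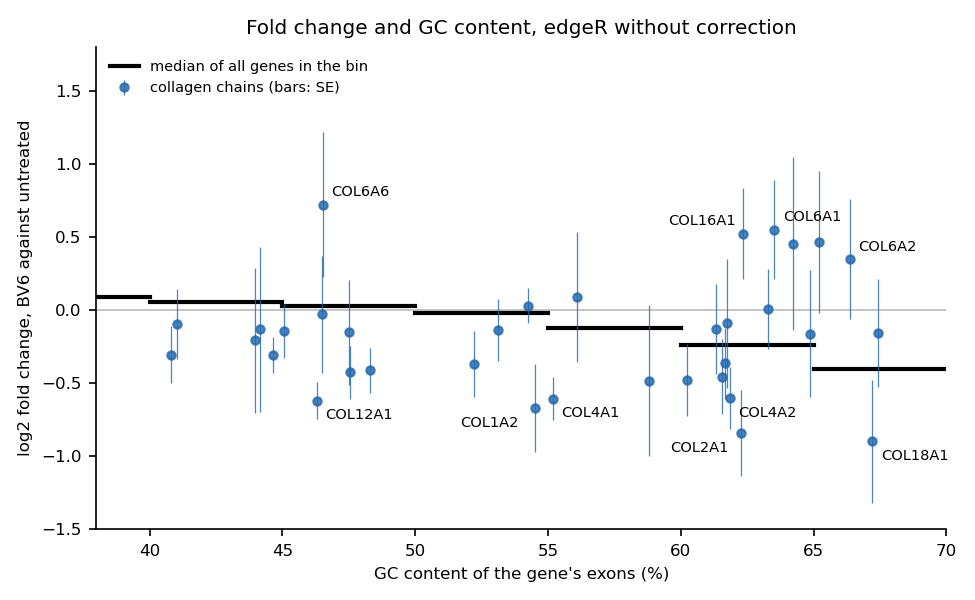
Log2FC of each tested collagen chain between BV6 and untreated samples (y axis, bars are SE) against the GC content of its exons in percent (x axis), with black lines for the median of all genes in each GC bin, the outer bins drawn only to the edges of the plot. The all-gene median goes from 0.0874 to -0.401, COL12A1, COL4A1 and COL1A2 lie well below their bins, and COL6A1, COL6A2 and COL16A1 lie above theirs.

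Without GC correction, no collagen chain passed the edgeR test between BV6 and untreated samples after the filter on low counts. Of the 35 tested chains, 0 were called by edgeR, where 0.45% of all genes were called in either direction. With the replicate block, which compares samples within an experiment, 0 were called too, where 0.943% of all genes were. At an unadjusted p below 0.05, 7 chains were lower with BV6 (20.0% of the chains, where 4.26% of all genes were), and 0 were higher (where 4.13% of all genes were). The 7 were COL2A1, COL4A1, COL4A2, COL5A2, COL11A1, COL12A1 and COL14A1. The Wald test of DESeq2 called 2 of the 40 chains it tested, COL12A1 and COL4A1, both lower with BV6. It called 0.639% of all genes lower, and limma-voom called 0 chains. With no filter on low counts, edgeR called 1 chain, COL12A1, and 242 of all genes. In these bulk samples, fewer cells of a kind and less RNA per cell cannot be told apart.

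The fold changes were small throughout. The log2FC of the 35 tested chains was between -0.90 (COL18A1) and 0.72 (COL6A6) with a median of -0.16, against a median of -0.01 over all genes tested, and 26 of the 35 were negative. The BV6 samples lay below all untreated samples for 4 chains (COL1A2, COL4A1, COL5A2 and COL12A1), a pattern that 3.89% of all genes showed, and above all of them for 0 chains, where 4.94% of genes showed it. BV6 was below its untreated partner in all 3 experiments for 11 chains, where 17.8% of genes were, and above it for 2 (COL9A2 and COL16A1), where 15.5% of genes were. The values varied between experiments. The median log2 ratio of BV6 to untreated over the tested chains was -0.40 in experiment 2, -0.36 in experiment 3 and 0.01 in experiment 4, with 25, 29 and 17 of the 35 chains lower. The median was below 0 in experiments 2 and 3 and near 0 in experiment 4; a difference between experiments was not tested.

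With the GC correction, the untreated samples moved closer together for the abundant collagen genes. Of the 18 chains of at least 10 CPM, 17 had a narrower range between untreated samples after correction, and their median log2 range went from 0.582 to 0.306. Over all 10136 genes at that level the median went from 0.360 to 0.313, and 61.6% had a narrower range. The correction was estimated in each library from the 17931 tested genes of known GC content, which include the 35 tested collagen genes. On that scale the median log2 ratio of the chains was -0.47, -0.34 and -0.12 in experiments 2, 3 and 4, with 25, 23 and 24 of the 35 chains lower.

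With GC correction and replicate block together, edgeR called 12 of the 35 chains with BH adjustment. Of these, 9 fell with BV6, where 4.13% of all genes in that fit fell, and 3 rose, where 3.66% of all genes rose. With GC correction and no block, 1 chain was called lower (COL12A1), where 0.301% of all genes were. BV6 samples lay below all untreated samples for 7 chains after correction (COL1A2, COL4A1, COL4A2, COL5A2, COL12A1, COL14A1 and COL18A1), where 5.54% of genes did, and above all of them for 3 (COL6A1, COL11A2 and COL16A1), where 5.5% of genes did. The 9 that fell were COL2A1, COL3A1, COL4A1, COL4A2, COL5A1, COL5A2, COL12A1, COL14A1 and COL18A1, and the 3 that rose were COL6A1, COL6A2 and COL16A1. They include fibrillar chains, the type IV pair, 2 fibril-associated chains and a multiplexin among those lower, and the abundant type VI pair among those higher. Without both samples of experiment 3, which holds the BV6 library that stood apart, this fit called 798 of all genes and 8 chains. COL3A1, COL5A1, COL16A1 and COL18A1 were not among these 8. Without experiment 2 the fit called 613 of all genes and 5 chains (COL4A1, COL6A1, COL6A2, COL12A1 and COL16A1). Without experiment 4 it called 1935 genes and 16 chains, against 1396 and 12 with all samples.

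**Figure D3:**
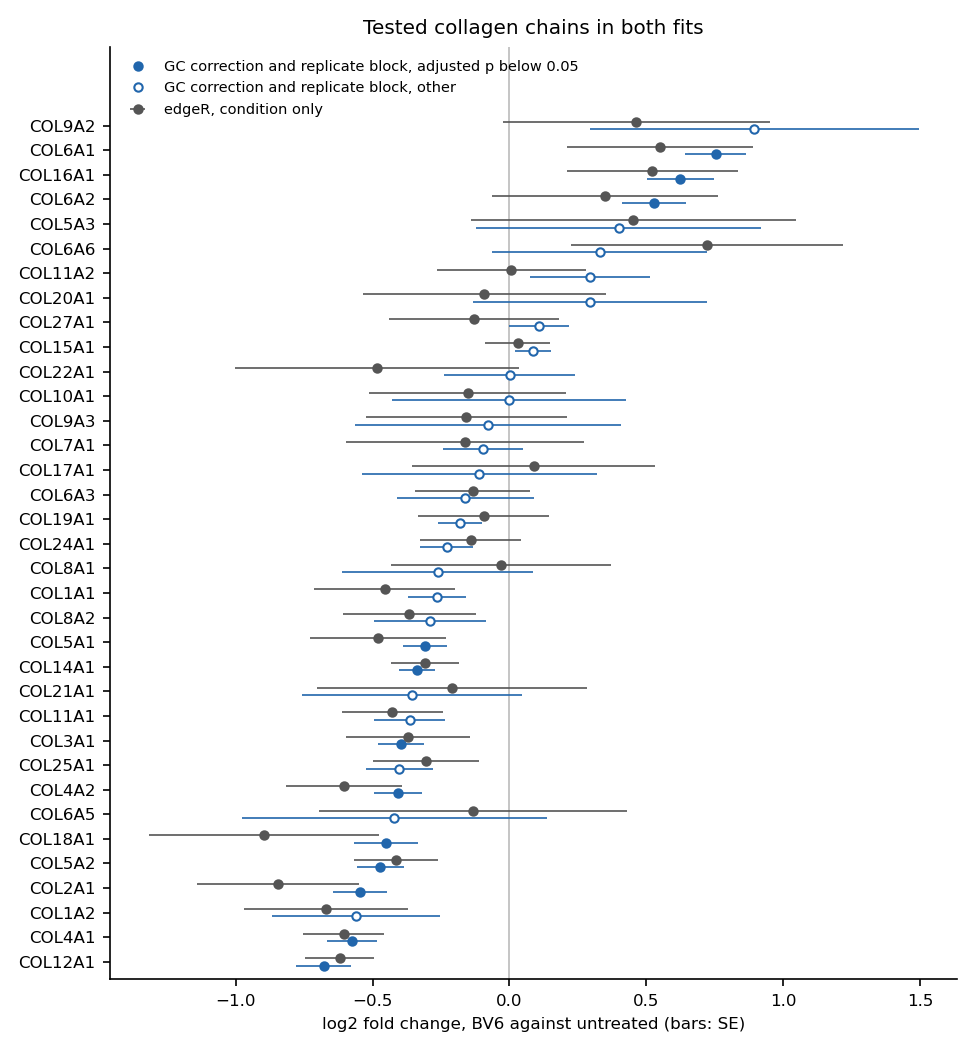
Log2FC between BV6 and untreated samples (x axis, bars are SE) of the 35 tested collagen chains in the edgeR fit on condition only (grey) and in the edgeR fit with GC correction and replicate block (blue, filled where the adjusted p was below 0.05). COL12A1 and COL4A1 lie lowest in the corrected fit at -0.68 and -0.58, COL6A1, COL16A1 and COL6A2 are the filled points above 0, and the grey bars are wider than the blue ones for most chains.

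The type IV pair encodes the chains of the common basement membrane network. COL4A1 (chromosome 13, 110148963 to 110307157, minus strand) was at 304, 261, 294 and 278.5 CPM in untreated replicates 1 to 4 and at 145, 187 and 228 CPM in BV6 replicates 2 to 4. The groups did not overlap, and every BV6 sample was below its partner. Its log2FC was -0.61 (SE 0.149, adjusted p = 0.185, edgeR, BH), and -0.58 (0.0913, adjusted p = 0.00199) with GC correction and replicate block. COL4A2 (chromosome 13, 110305812 to 110513209, plus strand) was at 438, 354, 325 and 312 CPM in untreated and at 216, 168 and 321 CPM in BV6 samples. Here BV6 replicate 4 lay inside the untreated range. Its log2FC was -0.60 (SE 0.211, adjusted p = 0.441 in edgeR, BH), and -0.41 (0.0880, adjusted p = 0.0135) with GC correction and block. After correction its untreated samples were at 342, 342, 325.5 and 319 CPM and its BV6 samples at 210, 253 and 286 CPM, with no overlap.

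These genes start head to head and share a promoter. In the RefSeq promoter table for GRCh38.p14, which holds 32 of the 44 collagen genes, their start sites on opposite strands are 126 bases apart. The stretch between them is shown on the plus strand, reading from COL4A1 towards COL4A2, because both genes had a negative log2FC in every fit run, with a CCAAT box and a GC box (GGGCGG) in capitals, which do not overlap.
COL4A1 to COL4A2, chr13:110307158-110307283, plus strand: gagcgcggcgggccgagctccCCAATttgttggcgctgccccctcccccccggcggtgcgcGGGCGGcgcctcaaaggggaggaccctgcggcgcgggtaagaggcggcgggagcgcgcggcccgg
Its GC content is 80.2%. The letters CCAAT, searched on both strands, occurred in 34.6% of the 35116 promoters of the table, which span 300 bases each, and GGGCGG in 44.9%. TATAAA occurred in 11.5% of them and not in the window of COL4A2. The other type IV pairs also start head to head, COL4A3 with COL4A4 at 418 bases. COL4A5 and COL4A6 are at 379 or 1415 bases, depending on the start site. All 4 of those genes were too low to test.

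COL12A1 (chromosome 6, 75084326 to 75206267, minus strand) encodes a FACIT chain that binds fibrils in tendon and muscle connective tissue. It was at 85.3, 99.8, 94.2 and 88.4 CPM in untreated replicates 1 to 4 and at 49.9, 62.4 and 67.1 CPM in BV6 replicates 2 to 4. Untreated samples were close to each other, and all BV6 samples lay below them. Its log2FC was -0.62 (SE 0.126), with the smallest adjusted p of all collagen chains in edgeR without block or GC correction (0.0964, BH). The adjusted p was 0.0645 with the replicate block, 0.0244 with GC correction and 0.00129 with both by edgeR, 0.0322 by edgeR with no filter on low counts, and 0.00310 by DESeq2, all with BH adjustment. Without BV6 replicate 3, the log2FC was -0.65 and the adjusted p 0.165 by edgeR (BH). With 46.3% GC it is among the less GC-rich chains, and the correction moved its value by little. COL14A1, the related chain with the highest level of the FACIT class, was at 265, 241, 304.5 and 262 CPM in untreated and at 186, 243 and 220.5 CPM in BV6 samples, so the groups overlapped in 1 BV6 sample. Its log2FC was -0.31 (SE 0.124), and -0.34 (0.0650) with GC correction and block, the smallest SE of the 12 called chains.

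**Figure D4:**
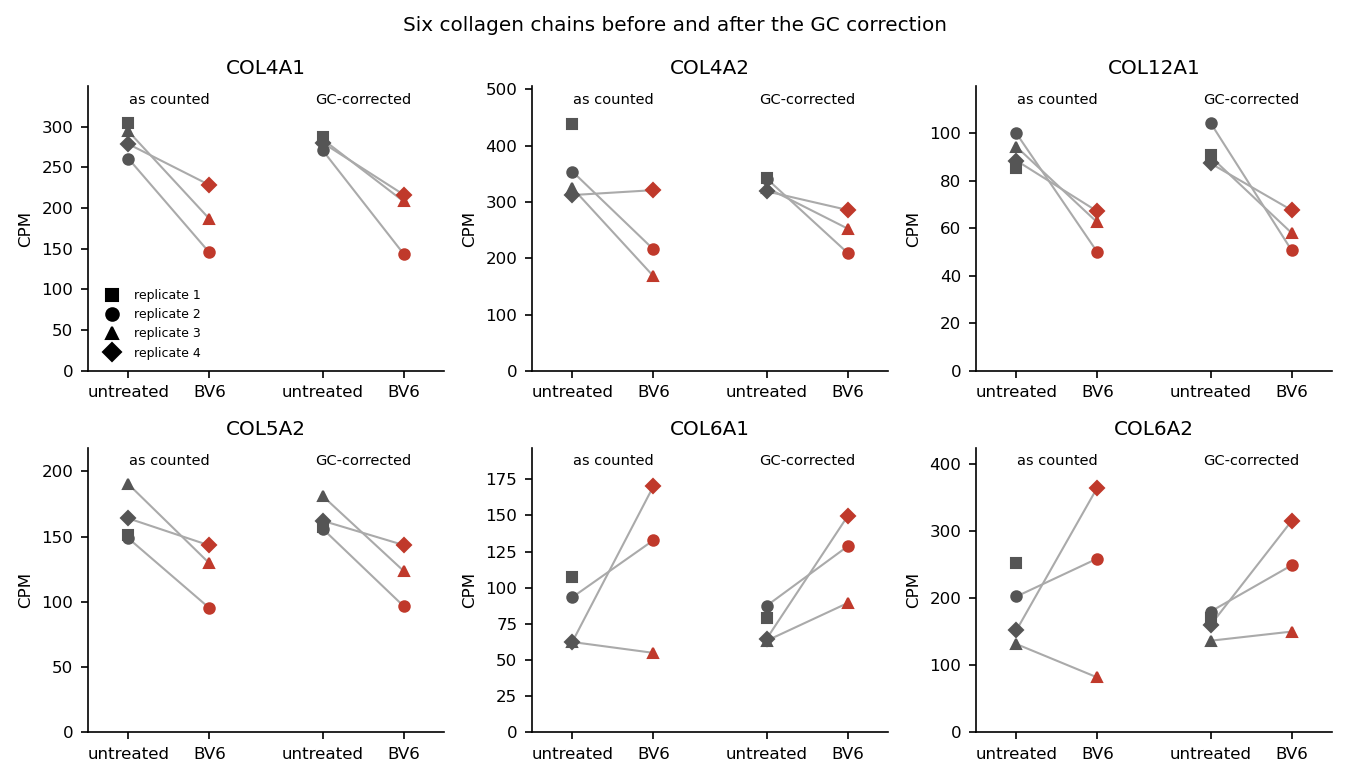
CPM of 6 collagen chains in untreated (grey) and BV6 samples (red), as counted (left of each panel) and after GC correction (right), with marker shapes for replicates 1 to 4 and lines joining samples of the same experiment. COL4A1, COL12A1 and COL5A2 go down in all 3 experiments on both scales, and COL6A1 and COL6A2 go up in all 3 only after correction.

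Among the fibrillar chains, COL5A2 (chromosome 2, 189031898 to 189225312) was at 151, 149, 190 and 164 CPM in untreated and at 95.3, 130 and 143 CPM in BV6 samples. The groups did not overlap. Its log2FC was -0.41 (SE 0.153), -0.25 without BV6 replicate 2, and -0.47 (0.0869) with GC correction and block. Its neighbour on chromosome 2, COL3A1, was at 231, 168, 239 and 258 CPM in untreated and at 127, 147 and 244 CPM in BV6 samples, below the partner in every experiment but with overlapping groups. COL5A1 was at 481, 324, 328 and 365 CPM in untreated and at 232, 182 and 391 CPM in BV6 samples, and BV6 replicate 4 lay above 3 of the untreated samples. In experiment 4, COL5A1 was above its partner as counted and slightly below it after GC correction, at 354 against 370 CPM. Its log2FC was -0.48 as counted, -0.26 without BV6 replicate 3 and -0.86 without BV6 replicate 4. That of COL3A1 was -0.37, and -0.19 without BV6 replicate 2 and -0.70 without BV6 replicate 4. COL2A1, the main collagen of cartilage, was at 51.1, 26.5, 34.8 and 30.5 CPM in untreated and at 15.1, 14.9 and 29.7 CPM in BV6 samples. Its log2FC was -0.85 (SE 0.295), and -0.55 (0.100) with GC correction and block. COL1A2 had a log2FC of -0.67 (SE 0.300), based on 41 to 77 counts per untreated and 21 to 35 per BV6 sample, and did not pass the test in any of these fits. COL1A1 was at 14.5, 11.1, 9.60 and 10.8 CPM in untreated and at 9.16, 5.05 and 10.9 CPM in BV6 samples, with a log2FC of -0.46 (SE 0.257), also not called, and of -0.19 without BV6 replicate 3. COL27A1 had a log2FC of -0.13 without and 0.11 with GC correction and block, neither of which passed the test.

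The type VI chains COL6A1 and COL6A2 rose in the fit with GC correction and block. COL6A1 (chromosome 21, 45981770 to 46005050) was at 107, 93.5, 62.5 and 62.7 CPM in untreated replicates 1 to 4 and at 133, 54.99 and 170 CPM in BV6 replicates 2 to 4. BV6 replicate 3 was the lowest of all samples and the other BV6 samples the highest. Its log2FC was 0.55 (SE 0.339, adjusted p = 0.722, edgeR, BH). After GC correction the untreated samples were at 79.2, 87.5, 63.4 and 64.7 CPM and the BV6 samples at 129, 89.4 and 149 CPM, and the log2FC with the block was 0.75 (SE 0.112, adjusted p = 0.00130, edgeR, BH). COL6A2 lies beside it on chromosome 21 and had 259, 81.9 and 365 CPM in the BV6 samples as counted, and 249, 150 and 315 CPM after correction, when its untreated samples were at 171, 180, 137 and 160 CPM. Its log2FC was 0.35 (SE 0.412) as counted, and 0.53 (0.117) with GC correction and block. Leaving out BV6 replicate 3 with no GC correction gave 0.90 for COL6A1 and 0.76 for COL6A2, with adjusted p of 0.212 and 0.394 (edgeR, BH). Leaving out BV6 replicate 4 gave 0.19 for COL6A1 and -0.13 for COL6A2, so the uncorrected direction of COL6A2 rested on 1 library. With GC correction and block, leaving out experiment 4 gave 0.305 for COL6A2. COL6A3, at 1.116, 1.30, 1.09 and 1.16 CPM in untreated and 0.925, 1.06 and 1.21 CPM in BV6 samples, had a log2FC of -0.13 (SE 0.211).

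**Figure D5:**
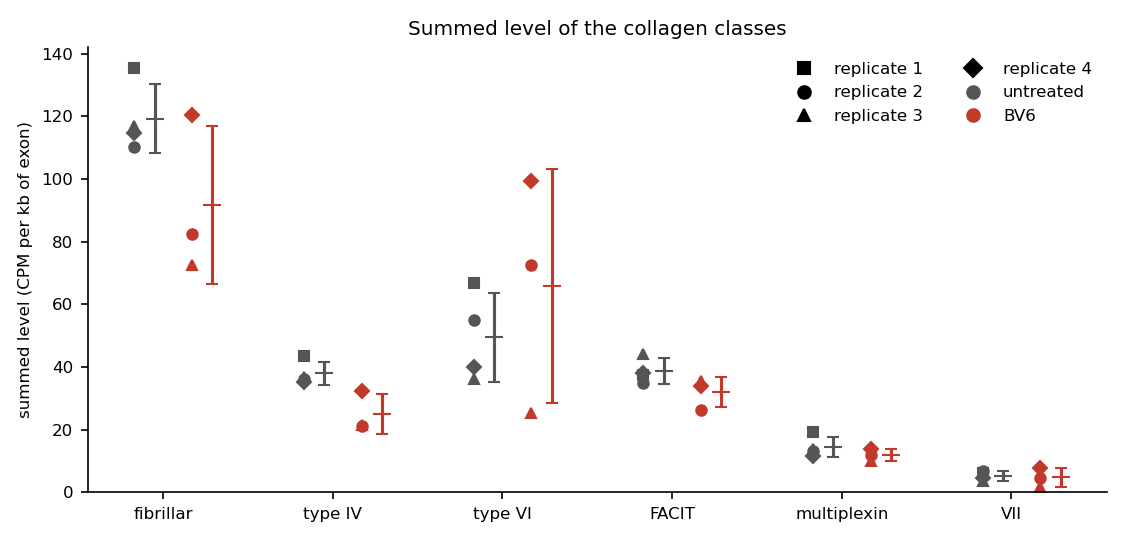
Summed level of each collagen class per sample, in CPM per kb of merged exons from 0, with marker shapes for replicates 1 to 4, grey for untreated and red for BV6, and the mean with SD beside the points; classes below 1% of the summed level are left out. Type IV has all BV6 samples below all untreated samples, with means of 37.99 and 24.99, while the BV6 samples of type VI are spread from 25.4 to 99.3.

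COL16A1, a FACIT chain near cell surfaces and microfibrils, was at 8.90, 9.40, 5.51 and 9.02 CPM in untreated and at 11.7, 6.32 and 17.4 CPM in BV6 samples. It was above its partner in every experiment, with a log2FC of 0.52 (SE 0.313) and of 0.62 (0.123) with GC correction and block. As counted it was 0.13 without BV6 replicate 4 and 0.83 without BV6 replicate 3, and its call in the corrected fit was lost without experiment 3 (adjusted p = 0.0525, edgeR, BH). COL18A1 was at 29.6, 12.0 and 40.3 CPM in BV6 samples and had the lowest log2FC of all chains as counted, -0.90 (SE 0.421, adjusted p = 0.619, edgeR, BH). That value was -0.45 (0.116) with GC correction and block, and -0.54 as counted without BV6 replicate 3, so its size changed with both. Its exons share 1563 bases (18.5%) with SLC19A1 on the opposite strand, and the sources used here do not state whether strand was used in counting, so its counts are uncertain. The other multiplexin, COL15A1, was at 61.6, 49.9, 63.2 and 51.5 CPM in untreated and at 55.9, 57.0 and 60.2 CPM in BV6 samples, with a log2FC of 0.03 (SE 0.119) and the groups interleaved. The other large positive values came from chains of few counts. COL6A6 (11 to 52 counts per sample), COL9A2 (3 to 19) and COL5A3 (6 to 34) had log2FC values of 0.72, 0.46 and 0.45, with SE values of 0.497, 0.487 and 0.594.

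Genes that make, process, bind or accompany collagens were counted from lists chosen with the family. Of 24 tested genes for collagen synthesis in the endoplasmic reticulum, 0 were called by edgeR on condition only (0.45% of all genes) and 1 with the replicate block (0.943% of all genes), P4HA2, a catalytic subunit of prolyl 4-hydroxylase. P4HA2 was at 8.28, 10.4, 13.4 and 11.3 CPM in untreated and at 19.1, 21.3 and 28.0 CPM in BV6 samples, with a log2FC of 1.07 (SE 0.192, adjusted p = 0.0551) and of 0.95 (adjusted p = 0.0354) with the block, in edgeR, BH. Every BV6 sample lay above every untreated sample. With GC correction and block 3 of the 24 rose (P4HA2, P3H2 and LARP6) and 3 fell (PLOD1, PLOD2 and SERPINH1), where 3.66% of all genes rose and 4.13% fell. SERPINH1, which encodes the collagen chaperone HSP47, was at 319, 279, 242 and 258 CPM in untreated and at 234, 152.5 and 231.5 CPM in BV6 samples, with a log2FC of -0.42 (SE 0.165) as counted and -0.28 (0.0598) in the latter fit. PLOD1, a lysyl hydroxylase, was at -0.51 (0.178) and -0.42 (0.0642). The median over the 24 was -0.07 as counted.

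Of 13 tested genes for procollagen processing and crosslinking, 0 were called with or without the block (0.943% and 0.45% of all genes). The median log2FC was -0.11. The members with the smallest p were LOXL4 (0.51, SE 0.236) and LOX (-0.42), both lysyl oxidases. With GC correction and block 2 of the 13 rose, where 3.66% of all genes rose, and 0 fell, where 4.13% fell. The 2 were LOXL4 (0.62, adjusted p = 0.0185) and ADAMTS14 (0.41, adjusted p = 0.0208), in edgeR, BH. Of 13 tested collagen receptors, 0 were called on condition only (0.45% of all genes) and 1 with the block (0.943%), DDR2, a receptor tyrosine kinase for fibrillar collagen. DDR2 was at 81.4, 71.5, 93.5 and 92.4 CPM in untreated and at 130, 146 and 121 CPM in BV6 samples, a log2FC of 0.64 (SE 0.123, adjusted p = 0.0744) and of 0.63 (adjusted p = 0.0498) with the block, in edgeR, BH. ITGA1, the α1 integrin subunit that binds type IV collagen, also had non-overlapping groups, at 20.3 to 27.0 CPM in untreated and 29.5 to 34.7 CPM in BV6 samples, and rose with GC correction and block (0.45, SE 0.0900) but not in the other 2 fits.

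Of 27 tested matrix partners, 1 rose in edgeR without block or GC correction, where 0.45% of all genes were called in either direction. TNC, which encodes the matrix glycoprotein tenascin-C, was at 1778, 1901, 1625 and 2355 CPM in untreated and at 939, 774 and 1571 CPM in BV6 samples. It fell with the replicate block (-0.89, SE 0.109, adjusted p = 0.0144) and not without it (-0.81, adjusted p = 0.286), in edgeR, BH. The block called 0.943% of all genes. With GC correction and block 6 of the 27 fell, among them SPARC, which binds collagen (-0.40), LAMA5 (-0.79) and TNC (-0.90), and 2 rose, where 4.13% of all genes fell and 3.66% rose. The median of the list was -0.20 as counted. Of 4 tested collagen-cleaving proteases, 1 was called on condition only (0.45% of all genes). This was MMP9, which rose (log2FC 2.80, SE 0.453, adjusted p = 0.0363, edgeR, BH). It was at 0.381 ± 0.120 CPM in untreated (SD, n = 4) and 2.68 ± 1.503 CPM in BV6 samples (SD, n = 3). Every BV6 sample lay above every untreated sample for MMP9. It was also called with the block (2.84, adjusted p = 0.0180) and with GC correction and block (2.96, adjusted p = 4.68e-05), in edgeR, BH. On condition only, MMP9 kept its call in 1 of 7 fits with a sample omitted, the one without BV6 replicate 3.

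Of the 12 RMS and myoblast markers, 0 were called by edgeR on condition only (0.45% of all genes). Their median log2FC was -0.45 as counted, with 11 negative, and -0.25 with GC correction and block. With the block, where 0.943% of all genes were called, 1 fell, CHRND, a subunit of the muscle acetylcholine receptor (-0.64, adjusted p = 0.0368, edgeR, BH). With GC correction and block 6 of the 12 fell, where 4.13% of all genes did. Their part in the collagen results was not tested. Endothelial markers summed to 54.9 to 75.4 CPM in untreated and 31.0 to 61.4 CPM in BV6 samples, nearly all of it PECAM1, while CDH5 and KDR had at most 16 counts. Leukocyte markers summed to 9.76 to 13.98 CPM in untreated and 7.06 to 11.6 CPM in BV6 samples, most of it NKG7. Epithelial markers stayed at or below 1.16 CPM in sum.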

How the data were processed

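Counts per gene of 7 RH30 samples were analysed. The authors made poly(A)-selected, stranded, paired-end libraries, mapped reads to GRCh38 with STAR (2.6.1d per the submitters' processing notes), counted them per gene with a union model of isoforms, and deposited raw counts. Handling of strand, of shared reads and of mates is not given in the sources used here. The collagen genes and all lists were chosen with earlier results of these data known.

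From the counts, R 4.3.3 with edgeR 4.0.16 was used (filterByExpr with a minimum count of 10, TMM, glmQLFit, glmQLFTest, Benjamini-Hochberg over 23124 genes, condition only). Alternatives were the replicate block, DESeq2 1.42.0, limma-voom (limma 3.58.1), RLE factors, filters, leaving out samples, and a per-library loess correction for GC content (span 0.5) on 17931 genes, 77.54% of those tested. The GC fits that leave out an experiment were chosen after seeing the data. Codes in the titles, read here as experiments, pair 6 samples. Deviations from group means correlated by 0.515, 0.322 and 0.197 for replicates 2, 3 and 4 over those 6 samples, and by 0.462, 0.438 and 0.0847 with untreated replicate 1 in the mean. Between BV6 and untreated samples of different codes the values were -0.352 to 0.132 over the 6 samples and -0.437 to 0.278 over all 7. The 0.278 was between BV6 replicate 4 and the unpaired untreated replicate 1, above the 0.0847 with its own partner, so the pairing of replicate 4 is uncertain. Untreated replicate 1 adds nothing to the difference in a blocked fit.

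Named genes were the 10 highest chains per length, the 5 largest values in each direction, chains of printed ratios, and any called without or with the block. From the other lists these were the called genes, or else the 2 with the smallest p. Further names, such as the chains called with the GC correction, were chosen after their values were seen. Tested on simulated counts in which 200 of 22603 genes differed by 2 on the log2 scale, edgeR recovered 196 with 14 false calls. DESeq2 recovered 198 of the 200 with 53 false calls. With GC trends and experiment effects simulated on 17626 genes, the fit with GC correction and block recovered 195 with 20 false calls. On the same counts, GC correction without block recovered 196 with 4 false calls. The simulated differences were larger than the log2FC of any tested collagen chain, and recovery of smaller differences was not tested. Coordinates and lengths come from GENCODE release 44, and promoters from RefSeq. Protein sequences were not used here. No column was without a sample. The ratios of COL4A5 to COL4A6 and of COL9A2 to COL9A3 were not computed, since a chain of each was at or below 3 counts in a sample. The values of 1 gene called among the matrix partners and the exon sequence of 1 chain are not reported here.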

Additional observations from a re-analysis of the deposited data

Results flagged for a closer look

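In a group of 4, a sample was marked when its gap to the nearest other sample exceeded Dixon's 95% limit for that gap over the group's range, which chance gives for about 1 in 20 groups. Of the 37 collagen genes looked at, 3 had such a sample among the untreated ones, and it was untreated replicate 3 in each. COL16A1 was at 5.51 CPM there and at 8.90 to 9.40 CPM in the other untreated samples (gap ratio 0.872). COL21A1, another fibril-associated chain, was at 0.630 CPM there and at 0.249 to 0.285 CPM in the others (0.905), and COL4A3, a type IV chain of specialized basement membranes, at 0.182 CPM against 0.104 to 0.113 CPM (0.881). The last 2 rest on 38 and 11 counts in that sample. With the GC correction, COL16A1 was at 6.83, 8.99, 5.54 and 9.23 CPM in untreated replicates 1 to 4, and replicate 3 no longer stood alone.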

How the results depend on the processing

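The number of called genes moved with the design and the GC correction, and the collagen calls moved with it. The replicate block called 218 of all genes in place of 104 and 0 collagen chains. DESeq2 called 401 genes and 2 chains, the GC correction 210 and 1, and GC correction with replicate block 1396 and 12. That last fit called 613 genes and 5 chains without replicate 2, 798 and 8 without replicate 3, and 1935 and 16 without replicate 4, so its calls depended on which experiment was left out. No filter on low counts gave 242 genes and 1 chain. With each sample left out in turn, edgeR called between 38 and 89 genes and 0 chains in all 7 fits. The cause was not tested. The median log2 fold change of the tested chains was between -0.33 and -0.14 over all settings.

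Of the other lists, the genes of collagen synthesis had 1 call with DESeq2, GC correction, no filter or the replicate block, and 6 with GC correction and block. Processing and crosslinking had 2 with GC correction and block. Receptors had 1 with DESeq2, GC correction, no filter or the block, and 2 with GC correction and block. Matrix partners had 2 with no filter or the block, 8 with GC correction and block, and 0 to 1 with a sample left out. Proteases had 0 with limma-voom and 0 to 1 with a sample left out.

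Directions turned for 8 chains, of which COL6A2, COL15A1 and COL27A1 are among the 10 highest per length in untreated cells. As reported, COL6A2 was at 0.35, COL15A1 at 0.03 and COL27A1 at -0.13. COL11A2 (0.01 as reported) was at -0.013 with DESeq2, -0.008 with RLE factors, -0.009 with no filter and -0.029 with limma-voom, and at -0.14 to 0.23 with a sample left out. COL15A1 was at -0.03 to 0.088 with a sample left out. COL27A1 was at 0.033 with GC correction, 0.11 with GC correction and block (0.27 without replicate 2 and 0.17 without replicate 3), and -0.35 to 0.14 with a sample left out. COL6A2 was at -0.13 to 0.76 with a sample left out. COL9A3 was at 0.29 with GC correction, and with GC correction and block at 0.23 without replicate 2 and 0.34 without replicate 4. In that last kind of fit COL5A3 was at -0.21 and COL6A3 at 0.042 without replicate 2, and COL6A6 at -0.084 without replicate 4. For the 23 named chains, 368 values kept direction and side of the threshold, 42 passed it newly, and 25 turned.

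With 4 and 3 samples, differences within the spread of the untreated collagen genes were not detectable in the fits on condition only, and 9 chains were too low to test. The fit with GC correction and block called COL2A1, COL3A1, COL5A1 and COL6A2 although their groups overlapped after correction. The GC fits cover 77.54% of tested genes, so their shares are compared only within those genes.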
